A study of Mus musculus with 15 samples.

Results

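The genes *Poll*, *Polm*, *Rag1*, *Rag2*, *Dntt*, *Lig4*, *Xrcc4*, *Dclre1c*, *Prkdc* and *Nhej1* were followed across 15 mouse T cell leukemia lines, to ask whether the loss of *Poll* mRNA in one genotype was shared by other genes of V(D)J recombination and end joining. They were chosen by name, and all 10 are among the 12545 genes for which expression is listed. The 8 DKO lines carried *E2a-/-* together with floxed *Lef1* alleles (LefF/F) and LckCre, a transgene that expresses Cre recombinase in developing T cells. The 7 *E2a-/-* lines shared the deletion of *E2a*, the gene for the E2A transcription factors (symbol *Tcf3*), with no change at *Lef1* named in the labels. All lines came from thymus of the FVB/NJ strain and were not treated, and the ages of the mice are not given in the labels. Each line was established from a leukemia and sequenced once, so that the spread within a genotype is the spread between lines, and no cells with intact *E2a* were part of the comparison.

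In V(D)J recombination, RAG1 and RAG2 together cut DNA beside the gene segments of antigen receptors, which gives open signal ends and hairpin-sealed coding ends. The hairpins are opened by Artemis (*Dclre1c*) with DNA-PKcs (*Prkdc*), and the ends are joined by DNA ligase IV (*Lig4*) with its partner XRCC4 and with XLF (*Nhej1*). Polymerases of family X work on the ends before ligation. TdT (*Dntt*) adds bases without a template, while polymerase lambda (*Poll*) and polymerase mu (*Polm*) fill gaps. *Rag1*, *Rag2* and *Dntt* are known for expression in immature lymphocytes, whereas the end-joining genes are used by most cells.

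Upstream sequences are shown for the 3 lymphoid genes and for *Dclre1c*, because E2A proteins, whose gene is deleted in all lines by the labels, bind E-boxes (CANNTG), and LEF1, targeted in DKO mice, binds sites with the core CTTTGA. The sequences are the 250 bases upstream of the RefSeq start in GRCm38.p6, written 5′ to 3′ on the strand of the gene, with both motifs in capitals. The windows are chr2:101649533-101649782 on the minus strand for *Rag1*, chr2:101624462-101624711 on the plus strand for *Rag2*, chr19:41029025-41029274 on the plus strand for *Dntt* and chr2:3423881-3424130 on the plus strand for *Dclre1c*.
Rag1: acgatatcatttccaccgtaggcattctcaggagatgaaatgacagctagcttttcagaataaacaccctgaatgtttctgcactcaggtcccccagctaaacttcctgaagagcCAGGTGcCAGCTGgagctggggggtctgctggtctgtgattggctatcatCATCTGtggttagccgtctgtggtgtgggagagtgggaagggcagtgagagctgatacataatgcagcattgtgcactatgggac
Rag2: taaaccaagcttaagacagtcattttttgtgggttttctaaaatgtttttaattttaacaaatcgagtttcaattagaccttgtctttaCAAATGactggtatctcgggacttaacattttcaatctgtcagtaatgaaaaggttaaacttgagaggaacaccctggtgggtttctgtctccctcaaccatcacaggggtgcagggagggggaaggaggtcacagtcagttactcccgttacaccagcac
Dntt: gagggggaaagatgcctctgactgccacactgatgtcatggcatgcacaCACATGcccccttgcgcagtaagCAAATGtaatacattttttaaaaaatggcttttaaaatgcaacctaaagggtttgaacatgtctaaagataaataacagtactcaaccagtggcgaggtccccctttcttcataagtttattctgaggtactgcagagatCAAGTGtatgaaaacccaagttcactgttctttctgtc
Dclre1c: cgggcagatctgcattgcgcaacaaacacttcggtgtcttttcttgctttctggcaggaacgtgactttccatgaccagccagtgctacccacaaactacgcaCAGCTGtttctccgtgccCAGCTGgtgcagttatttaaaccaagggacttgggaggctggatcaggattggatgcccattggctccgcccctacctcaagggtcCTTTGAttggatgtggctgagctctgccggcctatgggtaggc
The window of *Rag1* held 3 E-boxes, that of *Rag2* 1, that of *Dntt* 3 and that of *Dclre1c* 2, counted over both strands. At least 1 E-box was present in 66.2% of 32851 promoter windows of the same length, so its presence does not set these genes apart. The core CTTTGA was found only upstream of *Dclre1c* among the 8 genes with a window, and it was found in 13.8% of all windows. A match of letters is not evidence of a bound site. No window was available for *Poll* or *Prkdc*.

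Expression is given in CPM, the reads of a gene scaled to a fixed total of reads assigned to genes in that line. The reads on listed genes numbered 4847970 to 21377352 in DKO lines, with DKO79.9 the lowest, and 14477802 to 21681586 in *E2a-/-* lines. *Lef1*, the targeted gene, was at 103 to 210 CPM in DKO lines and at 668 to 1558 CPM in 6 *E2a-/-* lines, but the library labelled SKO132, also *E2a-/-*, was at 59.0 CPM, below every DKO line. *Tcf3* was listed at 117 to 243 CPM in all lines, in 1 value per gene that does not tell exons apart. All 8 T lineage markers looked for were listed, with sums of 1893 to 4606 CPM per line. These sums hide low values of *Cd5* and *Cd2*. The highest line for *Cd5* reached 21.2 CPM, and its median was 4.39. No DKO line exceeded 13.5 CPM for *Cd2*, whose extremes were both *E2a-/-* lines, SKO132 (0.496) and SKO115.2 (203). Every other T lineage marker was at 47.0 CPM or more in each line. The B lineage had 2 of 9 markers listed, with sums of at most 6.70 CPM. Of 9 myeloid and erythroid markers 2 were listed, with sums of 5.48 to 14.0 CPM, and of 6 stroma markers 4 were, with sums of 146 to 1190 CPM in DKO against 187.0 to 692 in *E2a-/-* lines. The highest stroma marker was *Col1a2*, at up to 947 CPM in DKO192.3, while *Epcam* was at 8.24 CPM or less and *Col1a1* and *Col3a1* are not among the listed genes. The part of these markers in the results was not tested. A pair of libraries stood apart. DKO170.2 had the lowest value of the 15 lines for 2143 of 9575 genes that averaged 5 CPM or more and the highest for 1605, and the median exon length was 7284 bases for the former and 2522 for the latter. SKO132 was next in the number of highest values, with 1348. Values without these lines are given beside some of the results they moved.

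*Poll* was nearly absent from DKO lines. No read was counted in 5 of them, DKO79.9, DKO102.4, DKO241, DKO548 and DKOTu3, where 3 reads would have given 0.618, 0.147, 0.159, 0.173 and 0.158 CPM. The other DKO lines were at 0.83 CPM in DKO170.2 (13 reads), 0.19 CPM in DKO713 (4 reads) and 0.0935 CPM in DKO192.3 (2 reads). In the *E2a-/-* lines *Poll* was at 3.16 CPM in SKO115.2, 7.34 in SKO132, 9.31 in SKO95, 12.3 in SKO137.1, 12.6 in SKO163.5, 21.2 in SKO186.5 and 22.7 in SKO156.6. The genotypes did not overlap, and the lowest *E2a-/-* line held 61 reads of the gene, against 19 in all DKO lines together. SKO132 was with the other *E2a-/-* lines for *Poll*, although its *Lef1* was low. The means were 0.14 ± 0.288 CPM in DKO against 12.7 ± 7.12 in *E2a-/-* lines (SD, n = 8 and 7), or a log2 fold change of -3.42 (SE 0.32) on the log2(CPM + 1) scale, which understates changes of genes with low values. This size depends on the pseudocount, with -2.62 for a pseudocount of 2 CPM and -6.04 for 0.1 CPM. *Poll* was taken up because of this difference, which is therefore described and not tested here. In bulk RNA of a line, fewer cells with *Poll* mRNA and less *Poll* mRNA per cell cannot be told apart.

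None of the 9 other genes passed the test between genotypes. By limma on log2(CPM + 1), with Benjamini-Hochberg adjustment over all 12545 genes, 0 of 9 passed an adjusted p of 0.01, where 0.0478% of all listed genes did. At an unadjusted p of 0.05 the count was also 0 of 9, beside 10.2% of listed genes, and the adjusted p-values were 0.566 to 0.969. The values of the 2 genotypes overlapped for each of the 9, and 0.175% of listed genes had values that did not overlap. The fitted differences were above 0 for 4 genes and below 0 for 5, with a median of -0.12 beside -0.019 for all listed genes. With edgeR's quasi-likelihood test and with DESeq2, 0 of 9 had an unadjusted p under 0.05 either. With SKO132 left out, 1 of 9 did, *Lig4* (limma adjusted p = 0.284). That fit called 17 of all listed genes at the adjusted threshold, against 6 with all lines. The share of all listed genes at the unadjusted p is not given for these other fits.

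**Figure D1:**
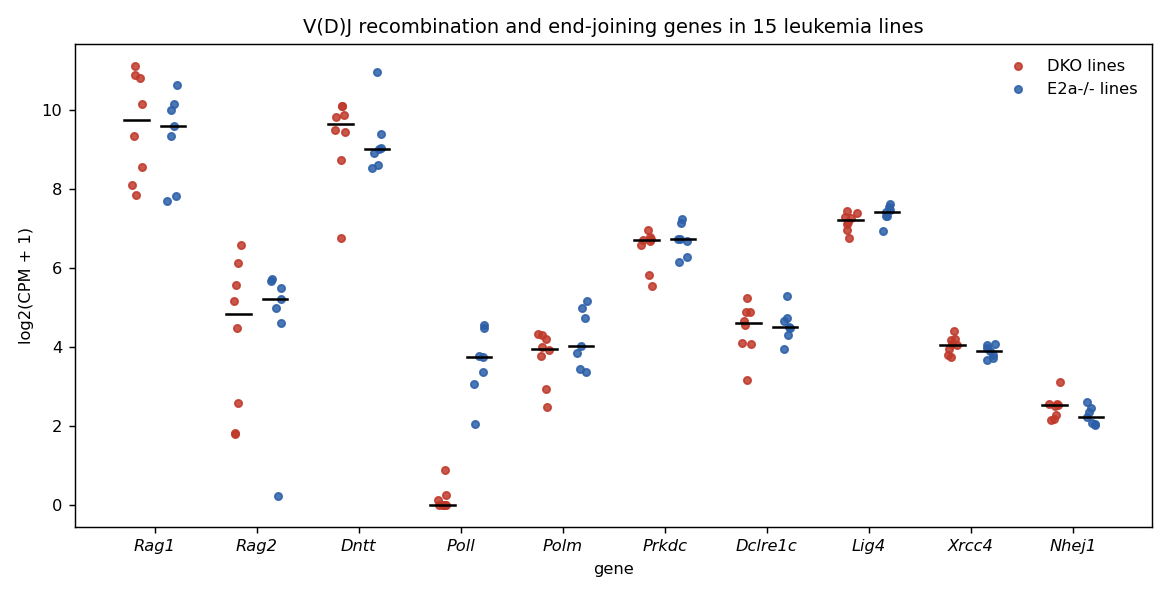
Expression of the 10 genes in each line, as log2(CPM + 1), with 1 point per line, DKO lines in red, *E2a-/-* lines in blue and the median of each group as a black bar. *Poll* is the gene whose groups do not overlap, from 0 to 0.83 CPM in DKO and from 3.16 to 22.7 CPM in *E2a-/-* lines, while the points of *Rag1*, *Rag2* and *Dntt* are spread widely in both groups.

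The recombinase genes varied widely between lines of either genotype. *Rag1* had a lowest value of 228 CPM, a median of 894 and a highest value of 2228 in DKO lines, and of 206, 775 and 1594 CPM in *E2a-/-* lines. The 3 highest lines, DKO548, DKOTu3 and DKO713, were DKO, but DKO79.9, DKO170.2 and DKO192.3 were among the lowest. The log2 fold change was 0.28, with a 95% interval of -0.99 to 1.55 and a limma adjusted p of 0.905, an interval that spans close to a log2 unit or more on either side of 0. Leaving out single lines moved this fold change from 0.01, without SKO115.2, to 0.53, without DKO79.9.

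*Rag2* fell into 2 sets of lines, and each set held lines of both genotypes. In 11 lines, 5 DKO and 6 *E2a-/-*, it was between 21.4 and 94.7 CPM. In the remaining 4 lines it was at 4.95 CPM in DKO79.9, 2.52 in DKO192.3, 2.50 in DKO241 and 0.17 in SKO132, the last being 3 reads. The medians were 28.2 CPM in DKO against 36.4 in *E2a-/-* lines, and the log2 fold change was -0.30, with an interval of -2.27 to 1.68 and a limma adjusted p of 0.936. Without SKO132 it was -1.02 (interval -2.62 to 0.57, limma adjusted p = 0.616). This fold change had the opposite sign, at 0.05, under edgeR and DESeq2.

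Within the 11 lines of the upper set, *Rag1* and *Rag2* varied together, with Pearson's r = 0.84 (permutation p = 0.0014, 0.0098 after adjustment over 7 gene pairs) and Spearman's rho = 0.77 (permutation p = 0.0070, adjusted 0.041). Without SKO115.2 and DKO170.2, the lines farthest from the median of *Rag1*, r was 0.67 (exact permutation p = 0.048). It was 0.75 in the 6 *E2a-/-* lines of this set (exact permutation p = 0.072), and none is given for the DKO lines, which were fewer than 6 here. The 11 lines were chosen by *Rag2* itself after its values were seen, so the p-values describe this chosen set and are no planned test. The pair had been planned over all 15 lines, but no value is given over them because of the gap in *Rag2*. The ratio of *Rag1* to *Rag2*, both as CPM per kilobase of exon, was 4.58 to 20.2 in the 11 lines. It was 23.9 in DKO79.9, 76.8 in DKO192.3, 135 in DKO241 and 702 in SKO132, where the exact interval that 3 reads allow runs from 240 to 3404 for counting error only. This separation follows in part from how the sets were made, by *Rag2*. The low lines had *Rag1* mRNA with little *Rag2* mRNA, at 224 CPM of *Rag1* in SKO132 and 648 CPM in DKO241.

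**Figure D2:**
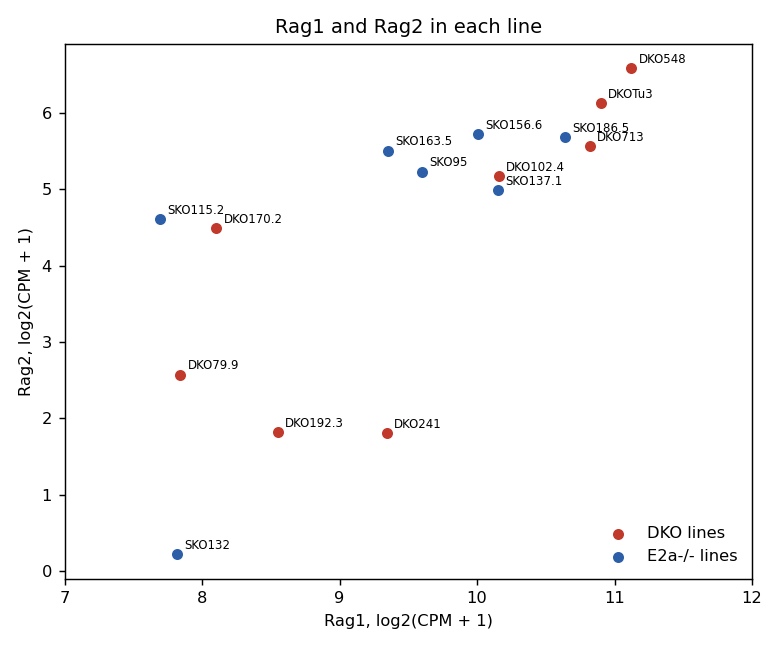
*Rag2* against *Rag1* in each line, both as log2(CPM + 1), with DKO lines in red and *E2a-/-* lines in blue. In 11 lines the genes vary together, and DKO79.9, DKO192.3, DKO241 and SKO132 lie below them with *Rag2* at or under 4.95 CPM.

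*Rag1* and *Rag2* are neighbours on chromosome 2, at 101478439 to 101489658 and 101464875 to 101472686 as the table lists them, in another assembly than GRCm38, and are transcribed towards each other. The gene *B230118H07Rik*, which lies between and across them, shares 80 exon bases with *Rag1* on the same strand and 208 with *Rag2* on the opposite strand in GENCODE M21. Whether reads were counted by strand is not given in the sources used here, so reads in those bases cannot be assigned with certainty. *B230118H07Rik* was at 33.5 CPM in DKO against 16.9 in *E2a-/-* lines, with a fitted log2 fold change of 1.28 that did not pass the threshold (limma adjusted p = 0.413).

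*Dntt* was the most highly expressed of the 10 genes per length of exon. It had a lowest value of 107 CPM, a median of 813 and a highest value of 1110 in DKO lines, and of 372, 519 and 1995 CPM in *E2a-/-* lines. The lowest and the highest values belonged to single lines, DKO79.9 and SKO95, and the other lines were between 372 and 1110 CPM. The log2 fold change was 0.08, with an interval of -0.93 to 1.10 and a limma adjusted p of 0.969. Over the 15 lines its correlation with *Rag1* did not pass the test (r = 0.23, permutation p = 0.419, adjusted 0.497, and rho = 0.11, permutation p = 0.696, adjusted 0.696).

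*Polm* codes for the polymerase most like polymerase lambda in the joining reaction. Its lowest, median and highest values were 4.58, 14.5 and 19.1 CPM in DKO lines and 9.39, 15.4 and 34.9 CPM in *E2a-/-* lines. The 2 lowest lines, DKO192.3 and DKO170.2, were DKO, and the 3 highest, SKO115.2, SKO163.5 and SKO95, were *E2a-/-*, with the others intermixed. The log2 fold change was -0.48, the second largest in size among the 10 genes, but its interval of -1.22 to 0.25 included 0 (limma adjusted p = 0.655). *Polm* was thus read in every DKO line, at 4.58 CPM or more, where *Poll* was at 0.83 CPM or less. Per kilobase of exon the 2 polymerases had means of 5.45 for *Poll* and 5.43 CPM for *Polm* in *E2a-/-* lines, and of 0.060 and 3.70 CPM in DKO lines. *Poll* was the higher of the pair in 3 of 7 *E2a-/-* lines and in 0 of 8 DKO lines.

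The ligation genes were the steadiest members. *Lig4* had values of 107 to 173 CPM in DKO against 122 to 198 in *E2a-/-* lines, with medians of 147 and 170 CPM. The DKO mean was lower, at 145 ± 21.8 against 167 ± 24.3 CPM (SD, n = 8 and 7), and the log2 fold change of -0.21 had an interval of -0.45 to 0.04 (limma adjusted p = 0.566). Without SKO132, an *E2a-/-* line with a low value of 122 CPM, the log2 fold change was -0.28 (interval -0.50 to -0.05), with an unadjusted p of 0.018 and a limma adjusted p of 0.284. *Xrcc4* had values of 12.4 to 20.2 and 11.8 to 15.9 CPM and a log2 fold change of 0.16 (interval -0.10 to 0.43, limma adjusted p = 0.681). *Nhej1* had values of 3.47 to 7.59 and 3.03 to 5.07 CPM and a log2 fold change of 0.23 (interval -0.13 to 0.59, limma adjusted p = 0.665), or 0.14 without DKO170.2. For these 3 genes the intervals lie within a log2 unit of 0, unlike those for *Rag1*, *Rag2*, *Dntt* and *Polm*.

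The genes of hairpin opening overlapped widely between the genotypes. *Dclre1c* had lowest, median and highest values of 7.91, 23.5 and 36.7 CPM in DKO lines and 14.6, 21.8 and 38.1 CPM in *E2a-/-* lines, and a log2 fold change of -0.12 (interval -0.70 to 0.47, limma adjusted p = 0.915). *Prkdc* had values of 45.4, 103 and 123 CPM in DKO lines and 70.6, 106 and 151 CPM in *E2a-/-* lines, and a log2 fold change of -0.24 (interval -0.71 to 0.24, limma adjusted p = 0.744). DKO170.2 was the lowest line for both genes and SKO186.5 the highest. Without DKO170.2 the log2 fold changes were 0.07 for *Dclre1c* and -0.10 for *Prkdc*. Over the 15 lines *Dclre1c* and *Prkdc* varied together (r = 0.67, permutation p = 0.0077, adjusted 0.027, and rho = 0.64, permutation p = 0.012, adjusted 0.041). The relation rests on DKO170.2, without which r was 0.41 (permutation p = 0.143). With DKO102.4 left out as well, r was 0.52 (permutation p = 0.068). In DKO lines alone, with DKO170.2 included, r was 0.73 (exact permutation p = 0.043), and in *E2a-/-* lines 0.51 (exact permutation p = 0.232). The other 4 pairs examined had adjusted permutation p-values of r of 0.165 to 0.497. *Rag2* with *Dntt* (r = -0.25) was taken only in the 11 lines of the upper *Rag2* set. The rest, over the 15 lines, were *Lig4* with *Xrcc4* (r = -0.48), *Xrcc4* with *Nhej1* (0.35) and *Polm* with *Dntt* (-0.19). *Dclre1c* shares 357 exon bases with *Suv39h2* on the opposite strand, and *Xrcc4* shares 112 with *Tmem167*, with the same limit from strand.

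**Figure D3:**
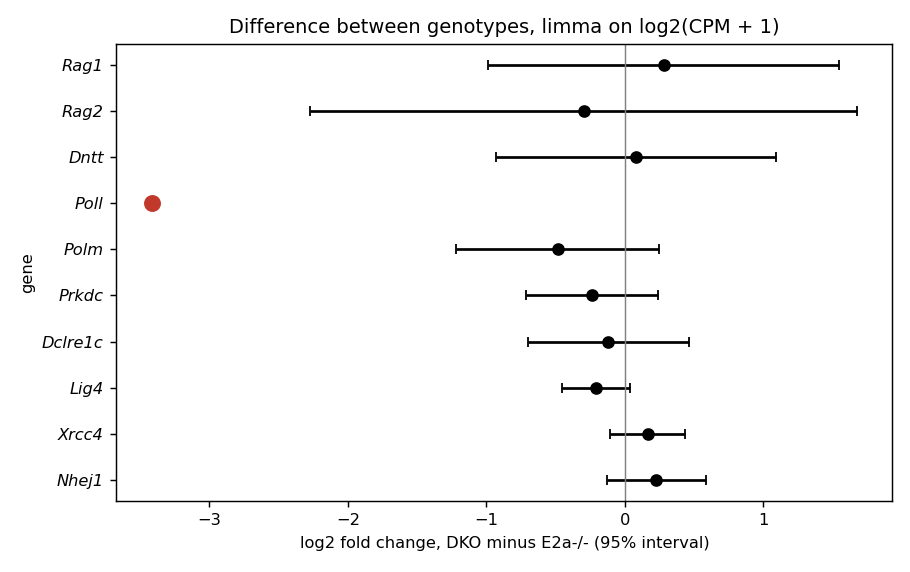
Difference between genotypes for each gene, as the log2 fold change of DKO over *E2a-/-* lines from limma on log2(CPM + 1), with a grey line at 0 and 95% intervals, except for *Poll* (red), whose difference of -3.42 is shown without one because the gene was chosen for it. The intervals of the other 9 genes include 0, and that of *Rag2* is the widest, from -2.27 to 1.68.

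The spread between lines differed among the members, and is described here without a test. On the log2(CPM + 1) scale the SD over 15 lines was 1.21 for *Rag1*, 1.88 for *Rag2* and 0.96 for *Dntt*, larger than that of 99.2%, 97.6% and 97.6% of the 500 listed genes nearest in mean level. The SD was 0.24 for *Lig4*, 0.21 for *Xrcc4* and 0.29 for *Nhej1*, larger than that of 38.6%, 7.4% and 6.4% of genes of like level. For *Polm*, *Dclre1c* and *Prkdc* the share was between 71.2% and 85.8%. For *Poll* the SD was 1.87 and the share 91.4%, which includes the difference between genotypes.

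Per kilobase of exon, the order of the mean level over all lines was *Dntt* at 319.5 CPM, *Rag1* at 143.5, *Lig4* at 29.8, *Rag2* at 9.98, *Prkdc* at 7.53, *Polm* at 4.51, *Nhej1* at 3.84, *Xrcc4* at 3.51, *Poll* at 2.58 and *Dclre1c* at 2.47. The ranges of neighbours in this order overlapped in each case. *Dntt* was above *Rag1* in 12 of 15 lines, *Rag1* above *Lig4* in 14, *Lig4* above *Rag2* in 14 and *Prkdc* above *Polm* in 13. The lower neighbours were closer, with *Polm* above *Nhej1* in 9 lines and *Poll* above *Dclre1c* in 6. By CPM alone, without regard to length, *Rag1* would be first at 948 CPM, ahead of *Dntt* at 732 CPM. The place of *Poll* holds for neither genotype, since it was the last of the 10 in DKO lines and came just above *Polm*, as number 6, in *E2a-/-* lines.

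The gene beside *Poll* was also lower in most DKO lines. *Poll* is listed on the minus strand of chromosome 19 at 45626765 to 45635021, and *Gm17018*, a predicted protein-coding gene on the plus strand, begins 84 bases away at 45635105, so that the 2 genes are transcribed away from each other. These positions are the table's own, which are not those of GRCm38. *Gm17018* was at 0.39 CPM in DKO102.4, 0.53 in DKO713, 0.68 in DKOTu3, 0.84 in DKO192.3, 2.60 in DKO241, 2.68 in DKO79.9, 3.13 in DKO170.2 and 7.94 in DKO548. In *E2a-/-* lines it was at 4.25 CPM in SKO115.2, 7.47 in SKO163.5, 10.4 in SKO132, 11.7 in SKO95, 15.7 in SKO137.1, 16.3 in SKO186.5 and 22.8 in SKO156.6. The groups overlapped because of DKO548, and the other 7 DKO lines were below every *E2a-/-* line.

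The log2 fold change of *Gm17018* was -2.17 (SE 0.41, interval -3.05 to -1.29), with an unadjusted p of 9.4e-05 and a limma adjusted p of 0.056, which does not pass 0.01. It did pass with array weights (adjusted p = 0.0041, where 0.231% of listed genes passed) and with DESeq2 (adjusted p = 0.0049, 1.41% of listed genes), but not with edgeR's quasi-likelihood test (adjusted p = 0.142). Within the 7 *E2a-/-* lines, *Gm17018* and *Poll* had r = 0.87 (exact permutation p = 0.012) and rho = 0.79 (exact permutation p = 0.048). It rested on the lines at the ends, since r was 0.47 without SKO115.2 and SKO156.6. Compared with *Poll* in the same 7 lines, *Rag1* had r = 0.87 (exact permutation p = 0.0093) and rho = 0.75 (exact permutation p = 0.066), and r was 0.85 without SKO115.2 and SKO156.6. *Rag2* had rho = 0.93 (exact permutation p = 0.0067), but r = 0.44 (exact permutation p = 0.332) with SKO132 far below the rest. *Polm* had r = -0.73 (exact permutation p = 0.058). Over the 10 genes compared with *Poll* in this way the smallest adjusted p was 0.060 for r, shared by *Gm17018* and *Rag1*, and 0.067 for rho, that of *Rag2*, so no relation passed the correction.

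The listed genes farther out on chromosome 19 had smaller differences, except that the interval of *Lzts2* was wide, from -1.60 to 1.80. *Btrc*, a subunit of a ubiquitin ligase and the next listed gene on the other side of *Poll*, was at 31.5 ± 9.09 CPM in DKO against 24.0 ± 5.70 in *E2a-/-* lines (SD, n = 8 and 7), with a log2 fold change of 0.36 (interval -0.06 to 0.77, limma adjusted p = 0.566). *Fbxw4*, which follows *Gm17018*, had a log2 fold change of -0.17 (interval -0.54 to 0.19, limma adjusted p = 0.755). Of the 10 listed genes nearest to *Poll*, 0 passed the adjusted threshold, beside 0.0478% of all listed genes. An unadjusted limma p under 0.05 was found for 3, beside 10.2% of all listed genes. Besides *Gm17018* these were *Twnk*, a mitochondrial helicase, with a log2 fold change of 0.24, and *Mgea5*, the enzyme that removes O-linked GlcNAc, with -0.33. The median level of chromosome 19 genes in a line, set against autosomes, was within -0.059 to 0.095 on the log2 scale in each of the 15 lines.

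**Figure D4:**
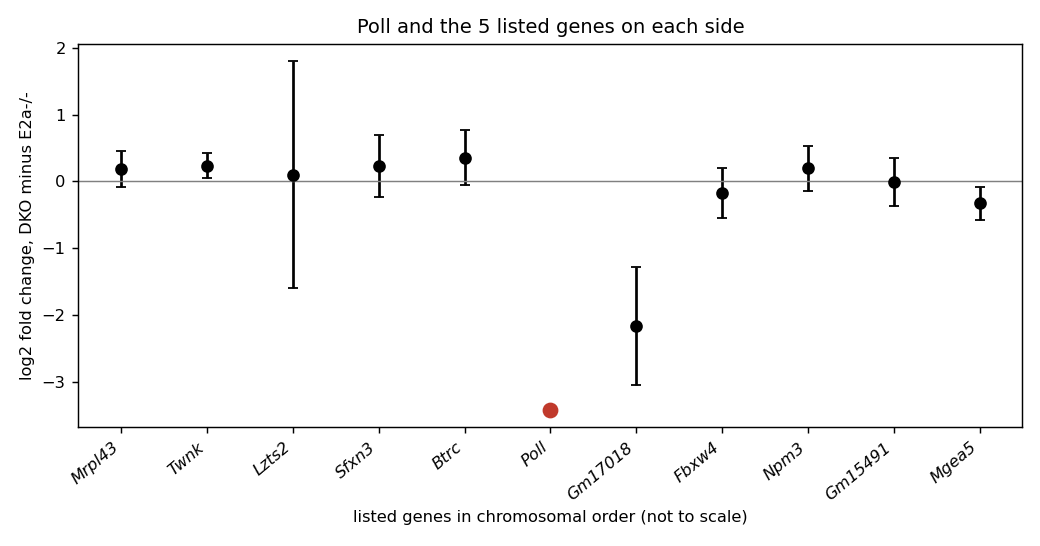
Log2 fold change of DKO over *E2a-/-* lines, for *Poll* (red, without an interval) and the 5 nearest listed genes on each side (black, with 95% intervals), in chromosomal order and not to scale. *Poll* at -3.42 and *Gm17018* at -2.17 stand below 0, and the other genes are between -0.33 and 0.36.

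The surroundings of the other genes held no called gene. Over all 10 members, 87 listed neighbours that are not members were examined, up to 5 on each side, and 0 passed the adjusted threshold. An unadjusted p under 0.05 was found for 12, or 13.8%, beside 10.2% of listed genes. Near the *Rag* genes these were *B230118H07Rik*, *Ldlrad3* (25.2 against 5.80 CPM in *E2a-/-* lines, log2 fold change 2.15, limma adjusted p = 0.382) and *Fjx1* (28.8 against 5.62 CPM, 2.45, adjusted p = 0.211). The nearest gene of *Lig4*, *Abhd13*, which begins 21 bases away, was at 69.9 and 68.2 CPM. *Mcm4*, a subunit of the replicative helicase beside *Prkdc*, was at 518 and 550 CPM, and *Gm4117*, an antisense transcript within *Xrcc4*, at 15.9 and 25.4 CPM (limma adjusted p = 0.386). In DKO241 the median level of chromosome 11 was raised by 0.47 on the log2 scale, while *Polm*, which lies on it, was 0.08 below its median there. In DKO548 chromosome 1 was raised by 0.26 and *Nhej1* was 0.21 above its median. *Nhej1* was also 0.21 above its median in DKO192.3, where the level of chromosome 1 was 0. A link between the 2 was not tested.

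The genes whose pattern over the 15 lines was most like that of *Poll* were, by Pearson's r of log2(CPM + 1) among the 11566 other genes that averaged 1 CPM or more, *Cacna1c* (r = 0.90), *Gm17018* (0.86), *Rgs13* (0.86), *Pbxip1* (0.83) and *Nrgn* (0.82). *Cacna1c*, a subunit of a voltage-gated calcium channel, was at 1.09 CPM in DKO against 46.3 in *E2a-/-* lines on average, and *Rgs13*, a regulator of G-protein signalling, at 0.47 and 21.1 CPM. Because *Poll* separates the genotypes, likeness to it is in large part likeness to that separation. Over all 15 lines r of the other members with *Poll* was between -0.42 for *Xrcc4* and 0.38 for *Lig4*, which does not show how they vary among the *E2a-/-* lines that express it (*Rag1* had r = 0.87 there). Most like *Rag1* were *Ap1s2* (r = 0.90), *Oxsr1* (0.89), *Lrig1*, *Whrn* and *Agtpbp1* (0.88 each). Most like *Dntt* were *Ppp1r9b* (0.90), *Polr3gl* (0.84), *Slc31a2* (0.83), *Dnaaf5* and *Shb* (0.79 each).

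Genes that work beside the members were examined in 8 lists of 99 genes in all. An adjusted p under 0.01 was found for 0 of them, and an unadjusted p under 0.05 for 3 that were higher in DKO lines (4.33% of listed genes) and 3 that were lower (5.83% of listed genes), with a median log2 fold change of -0.023. In the list of Ku and bridging factors, 0 of 11 genes had an unadjusted p under 0.05, beside 10.2% of listed genes. Fitted values were above 0 for 6 of them and below 0 for 5. *Xrcc6*, which codes for Ku70, was at 656 ± 215 CPM in DKO against 659 ± 351 in *E2a-/-* lines, and *Xrcc5*, for Ku80, at 100 ± 59.5 and 94.7 ± 22.9 CPM (SD, n = 8 and 7). Of 15 genes that signal the presence of breaks 0 had an unadjusted p under 0.05, beside the same 10.2%. Among them was the kinase gene *Atm*, at 112 and 123 CPM.

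Further lists were alternative end joining (11 genes), other repair polymerases (10 genes) and cofactors or turnover of RAG (11 genes). They held 0 genes with an unadjusted p under 0.05, beside 10.2% of listed genes. Without DKO170.2, 1 polymerase gene, *Polk*, had such a p, and without SKO132, 1 gene of the RAG list, *Cdk2*, did. The share of all listed genes is not given for those fits. *Polb*, the family X polymerase of base excision repair, was at 27.0 ± 7.76 and 26.5 ± 1.98 CPM (SD, n = 8 and 7), with a log2 fold change of -0.01 and an interval of -0.32 to 0.30. *Polq*, which codes for the polymerase of alternative end joining, was at 55.2 and 63.3 CPM. Of 15 genes of homologous recombination 1, *Blm*, a RecQ helicase, had an unadjusted p under 0.05, beside 10.2% of listed genes. *Blm* was at 114 ± 16.2 CPM in DKO against 145 ± 10.1 in *E2a-/-* lines (log2 fold change -0.35, limma adjusted p = 0.164).

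Of 18 transcription factors known from *Rag* regulation 4 had an unadjusted limma p under 0.05, beside 10.2% of listed genes, and 0 passed the adjusted threshold. The 4 include *Lef1*, and the cause of its difference was not tested. *Lef1*, which is targeted in DKO mice, had a log2 fold change of -2.33 (limma adjusted p = 0.098), with SKO132 included, and was the 1 gene of the list that passed without it. *Foxo3* was at 93.2 CPM in DKO against 162.9 in *E2a-/-* lines (adjusted p = 0.289). *Tcf7*, which codes for TCF1, the relative of LEF1, was at 2862 ± 461 and 1878 ± 487 CPM (SD, n = 8 and 7, limma adjusted p = 0.241), and *Tcf4*, an E protein gene, at 85.7 and 34.5 CPM (adjusted p = 0.324). In the list of products of the pre-TCR stage 11 of 12 genes had fitted values above 0, with a median of 0.43, but 1 of them, *Cd3e*, had an unadjusted p under 0.05, at 444 and 320 CPM (limma adjusted p = 0.463). For 6 of these 12 genes SKO132 held the lowest value, among them *Notch1*, at 31.3 CPM where the other lines were at 830 CPM or more. Without SKO132, 8 of 12 were above 0 and the median was 0.11, and without DKO170.2 none had an unadjusted p under 0.05.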

How the data were processed

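RNA was sequenced from 15 leukemia lines, 8 DKO and 7 *E2a-/-*, with genotypes from the sample labels. Per the labels and methods, reads were trimmed (Trimmomatic 0.33), aligned to mm10 (TopHat2 2.1.0), counted per gene (HTSeq 0.6.1) and scaled with edgeR, and the authors deposited CPM values. Each value is a whole multiple of the value of 1 read in its line (100% of values, tolerance 0.1 reads), so whole reads were recovered, and these were used in the count tests. The table's coordinates are not those of GRCm38, since 190 of 12172 matched genes start within 1 base, and its listed gene length exceeds the gene's span for 1362 genes. Lengths per kilobase, biotypes and overlaps were therefore taken from GENCODE M21, in place of the listed length.

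Genotypes were compared with limma (version 3.58.1, R 4.3.3) on log2(CPM + 1), allowing a variance trend, two-sided, with Benjamini-Hochberg adjustment over 12545 genes and a threshold of 0.01. Alternatives on recovered reads used edgeR (4.0.16) and DESeq2 (1.42.0). Correlations used 100000 permutations, or all orders for fewer than 10 lines, in Python (3.11.15) with scipy (1.17.1). The gap in *Rag2* was placed at 20 CPM, and the relations of *Poll* within *E2a-/-* lines were examined, after seeing the data, as were the lists and members without SKO132 or DKO170.2. The genes named were the 10 members, the 5 most alike of *Poll*, *Rag1* and *Dntt*, the nearest neighbours and list genes with an unadjusted p under 0.05. *Ldlrad3*, *Fjx1*, *Twnk*, *Mgea5*, *Fbxw4* and the list genes given for their role were added after their values were seen. Members and lists were chosen with earlier results of these data known. The main limma fit and the edgeR and DESeq2 tests were checked on simulated data. The labels name no batch. Whether lines came from separate mice is not given for each, so p-values measure the spread between lines. Intervals cover counting error only where so stated. Promoter windows were available for 8 of 10 members.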

Additional observations from a re-analysis of the deposited data

Results flagged for a closer look

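Among 20 groups of values, each 1 member in 1 genotype, 3 held a line far from the others, where about 1 in 20 is found by chance. That figure is a rough guide and no test, because the groups share lines and *Poll* was chosen for its low DKO values. *Poll* was at 0.83 CPM in DKO170.2, while the other DKO lines were at 0 to 0.19 CPM, a difference of 13 reads against at most 4. *Nhej1* was at 7.59 CPM in the same line, with the other DKO lines at 3.47 to 4.91 CPM. DKO170.2 stood apart well beyond these genes, as the lowest line for 26 of the 99 genes of the 8 lists and the highest for 13, with median exon lengths of 7496 and 2422 bases, and it was the lowest for *Dclre1c* and *Prkdc*. *Dntt* was at 1995 CPM in SKO95, with the other *E2a-/-* lines at 372 to 675 CPM, and the *E2a-/-* mean with it included was 709 ± 576 CPM (SD, n = 7).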

How the results depend on the processing

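The number of the 9 members other than *Poll* past the threshold was 0 under each alternative tried, including an adjusted p of 0.05, edgeR, DESeq2 and each line left out. Over all listed genes limma called 6 genes, 19 at an adjusted p under 0.05, 29 with array weights, 1 with edgeR's quasi-likelihood test, 84 with its likelihood ratio test and 177 with DESeq2, and from 3 to 17 with a line left out, the highest without SKO132, then 10 without DKO79.9 and 3 without DKO170.2, DKO713, SKO137.1 or SKO156.6. The log2 fold change of *Rag2* reversed to 0.052 under the quasi-likelihood test, 0.050 under the likelihood ratio test and 0.050 under DESeq2, and ranged from -1.02 to 0.054 with a line left out. With a line left out that of *Dntt* ranged from -0.033 to 0.45 and that of *Dclre1c* from -0.23 to 0.066, which include values of the opposite sign. The cause was not tested. The fold changes of the other members kept their direction. That of *Poll* was -3.67 to -3.25 with a line left out, -2.62 with a pseudocount of 2 CPM, -6.04 with 0.1 CPM, -6.34 with both edgeR tests and -6.42 with DESeq2. That of *Rag1* was 0.01 to 0.53 and that of *Prkdc* -0.33 to -0.10 with a line left out. *Gm17018*, examined under alternatives after seeing the data, had adjusted p-values of 0.0041 to 0.142, and of 0.014 to 0.124 with a line left out. The correlation of *Prkdc* with *Dclre1c* was 0.52 without the 2 farthest lines and 0.51 in *E2a-/-* lines alone, and that of *Rag1* with *Rag2* 0.75 in *E2a-/-* lines alone, which did not pass 0.05. By CPM alone 7 members changed place in the order of levels. No paired analysis was possible because the lines of the 2 genotypes share no line numbers in the labels. Depth limits *Poll* in DKO79.9, where 3 reads are 0.618 CPM. *Rag2* in SKO132 rests on 3 reads, in a library with 18075760 reads on listed genes.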
